A study of Homo sapiens with 9 samples.

Results

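Keratins are the intermediate filament proteins of epithelial cells. A filament is built from pairs of an acidic type I and a basic or neutral type II keratin, and the pair *KRT8* and *KRT18* is the main one of simple epithelia such as the lining of the lung. *KRT7* and *KRT19* are further simple epithelial keratins of ducts and airways and are used, with *KRT8* and *KRT18*, as tissue markers of carcinoma.

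The genes described here are 8 keratins, taken by symbol from the 26364 gene names of the count table, which also lists 47 other keratins. The type I genes were *KRT15*, *KRT17*, *KRT18* and *KRT19*, and the type II genes were *KRT7*, *KRT8*, *KRT80* and *KRT81*. RNA-seq was done in A549, a human lung adenocarcinoma line, in 9 libraries of 4 groups. The control group (n = 2) was labelled wild type. The *LA* group (n = 2) carried guides against *LOC388942* and *ALK*, which join the intergenic region near *LOC388942* to *ALK* on the same chromosome and give the *LA* fusion. The sgScr group (n = 3) and the sg*FOS* group (n = 2) carried the same pair of guides together with a scramble guide or a guide against *FOS*, an AP-1 transcription factor gene. The methods describe the fusion cells as a strain grown from single A549-Cas9 cells, so that a clone and its fusion cannot be told apart here. The labels do not say whether the control cells carried Cas9, which *FOS* guide each sg*FOS* library received, or whether replicates were separate cultures, so p-values measure only the spread between these libraries.

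Total counts ran from 14507228 to 20456341 per library. The targeted gene *FOS* had 155 and 167 counts in control, 1660 and 5448 in *LA*, 3528 to 4198 in sgScr and 1008 and 1113 in sg*FOS*, and *ALK* had at most 15 counts in any library. The fold differences within groups were wide in control and *LA* and narrow in sgScr and sg*FOS*, with a chi-square of counts per degree of freedom of 125 and 58.1 for the first pair of groups and of 1.74 to 2.65 for the others. Of the 8 epithelial markers, which include *KRT8* and *KRT18*, all were detected in at least 1 control library, and *ESRP1* had 0 and 1 counts in *LA*. Among the leukocyte markers, *PTPRC* and *CD3E* were at 0 in every library, which allows up to 3 counts in each, *LYZ* had at most 13 counts, and *CD68*, a lysosomal gene, had 382 to 688 counts. In these bulk samples, fewer cells that make a keratin and less keratin RNA per cell cannot be told apart.

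*KRT81* belongs to the hair keratins and needs a word on its sequence, because its reads can be hard to assign. On GRCh37 it lies at chr12:52679697-52685318 on the minus strand, and the annotated *KRT86* gene, at chr12:52643084-52702947 on the plus strand, spans all 5622 bp of it. Their transcripts are also near copies. Of the 150-base windows of the *KRT81* transcript, 25.6% occur letter for letter in *KRT86*, and the longest shared run was 605 bases. Coding identity was 93.6% with *KRT86* and 93.4% with *KRT83*, another hair keratin at chr12:52708085-52715182. The stretch below, 90 coding bases read 5′ to 3′ from the annotated transcripts, is shown because the 3 genes can be told apart in it. Capitals mark the 8 positions at which they are not all alike.
KRT81: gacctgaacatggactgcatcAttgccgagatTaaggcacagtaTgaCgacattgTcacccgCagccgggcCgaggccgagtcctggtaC
KRT83: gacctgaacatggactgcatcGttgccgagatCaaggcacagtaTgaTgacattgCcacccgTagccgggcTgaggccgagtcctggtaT
KRT86: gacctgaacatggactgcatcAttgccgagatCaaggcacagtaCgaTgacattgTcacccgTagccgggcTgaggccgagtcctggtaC
These lie on chromosome 12 at 52681777 to 52681866 (*KRT81*, minus strand), 52710652 to 52710741 (*KRT83*, minus strand) and 52699090 to 52699179 (*KRT86*, plus strand). In this stretch *KRT83* differed from *KRT81* at 7 bases and *KRT86* at 5.

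For the other members, positions and overlaps with annotated genes are given here. Copies of them elsewhere in the genome were not searched for. *KRT8* (chr12:53290971-53343738, minus strand) and *KRT18* (chr12:53342655-53346690, plus strand) overlap by 1084 bp on opposite strands, and *KRT80* (chr12:52562780-52585798, minus strand) lies opposite the noncoding RNA gene *LINC00592*. *KRT7* is at chr12:52626304-52645970 on the plus strand, and its last 2887 bp are shared with the annotated *KRT86* gene. The remaining type I genes lie on chromosome 17 on the minus strand, *KRT15* at chr17:39669997-39678781, *KRT19* at chr17:39679869-39684560 and *KRT17* at chr17:39775694-39781094. These overlaps are of whole gene spans, introns included, and overlap of exons was not measured. The strand setting of the counting is not given in the sources used here, so reads in these overlaps may be of uncertain origin.

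The 4 most abundant members, *KRT7*, *KRT8*, *KRT18* and *KRT81*, made up 96.75% to 99.37% of the members' counts in each library. All 8 members together took 2.95% and 1.84% of all counts in the control libraries, 1.32% and 2.04% in *LA*, 0.979%, 0.985% and 1.02% in sgScr, and 1.14% in each sg*FOS* library. The range of *LA* thus overlapped that of control, while every sgScr and sg*FOS* library was below every control and *LA* library. The 47 other keratins added little, since the 8 members held 98.96% to 99.44% of all keratin counts.

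Levels are given as counts per 1000000 after TMM normalization (CPM), and are compared between genes only per kilobase of transcript. Per kilobase, the order of the mean levels in control was *KRT8* (4669), *KRT81* (4480), *KRT18* (3973) and *KRT7* (3091), then *KRT19* (84.5), *KRT80* (23.2), *KRT15* (0.662) and *KRT17* (0.211). Among the top 4 in control, each gene overlapped its neighbour in this order. In *LA* the order was the same, with *KRT8* and *KRT81*, *KRT18* and *KRT7*, and *KRT19* and *KRT80* overlapping. In sgScr the mean levels per kilobase were 1676 for *KRT8*, 1430 for *KRT7*, 1323 for *KRT81* and 1184 for *KRT18*, so that *KRT7* stood in the second place, and no neighbours overlapped. The sg*FOS* libraries kept that order, with 1956, 1721, 1370 and 1308, again without overlap.

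**Figure D1:**
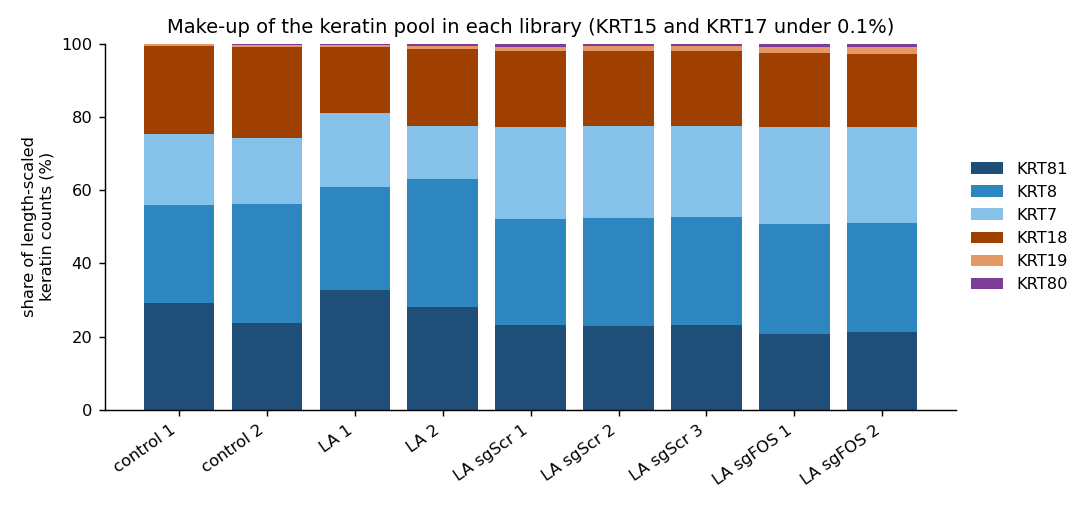
Share of length-scaled member counts (percent, stacked bars) in each of the 9 libraries. *KRT7* took 14.5% to 20.3% in the control and *LA* libraries and 24.9% to 26.4% in the sgScr and sg*FOS* libraries, where *KRT81* took 20.7% to 23.3%.

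*KRT8*, the type II partner of *KRT18*, had 10270 and 6389 CPM in control, 3577 and 6872 in *LA*, 2871, 2991 and 3108 in sgScr, and 3540 and 3438 in sg*FOS*. *KRT18* had 7372 and 3855 CPM in control, 1812 and 3268 in *LA*, 1650, 1646 and 1723 in sgScr, and 1878 and 1817 in sg*FOS*. Both were thus highest in the first control library, and their *LA* libraries differed by 1.92-fold and 1.8-fold.

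*KRT7*, a type II keratin of glandular and ductal epithelia, had 6842 and 3205 CPM in control, 2338 and 2583 in *LA*, 2268, 2307 and 2394 in sgScr, and 2829 and 2766 in sg*FOS*. *KRT81* had 12260 and 5027 CPM in control, 4480 and 5963 in *LA*, 2511, 2489 and 2653 in sgScr, and 2628 and 2656 in sg*FOS*. The first control library was also the highest for these genes, by 2.13-fold and 2.44-fold over the second.

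*KRT19*, the smallest keratin and one that lacks most of the tail domain, had 142 and 92.8 CPM in control, 32.6 and 123 in *LA*, 93.3, 92.0 and 101 in sgScr, and 174 and 172 in sg*FOS*. Both sg*FOS* libraries stood above all others, and the *LA* libraries differed by 3.77-fold, more than for any other member tested. *KRT80*, a type II keratin that is expressed in many epithelia, had 89.0 and 90.5 CPM in control, 116 and 242 in *LA*, 129, 131 and 134 in sgScr, and 187 and 180 in sg*FOS*. Its control libraries were lower than all others.

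*KRT15* and *KRT17*, keratins of basal and stratified epithelia, were close to the detection limit. *KRT15* had 15 and 22 counts in control, 16 and 51 in *LA*, 35 to 56 in sgScr, and 46 and 35 in sg*FOS*. *KRT17* had 9 and 1 counts in control, 0 and 1 in *LA*, 0, 0 and 4 in sgScr, and 2 and 3 in sg*FOS*, and it passed the filter on low counts in no comparison. The 7 other members passed in all 4 comparisons. A count of 0 allows up to 3 counts, which covers counting error only.

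**Figure D2:**
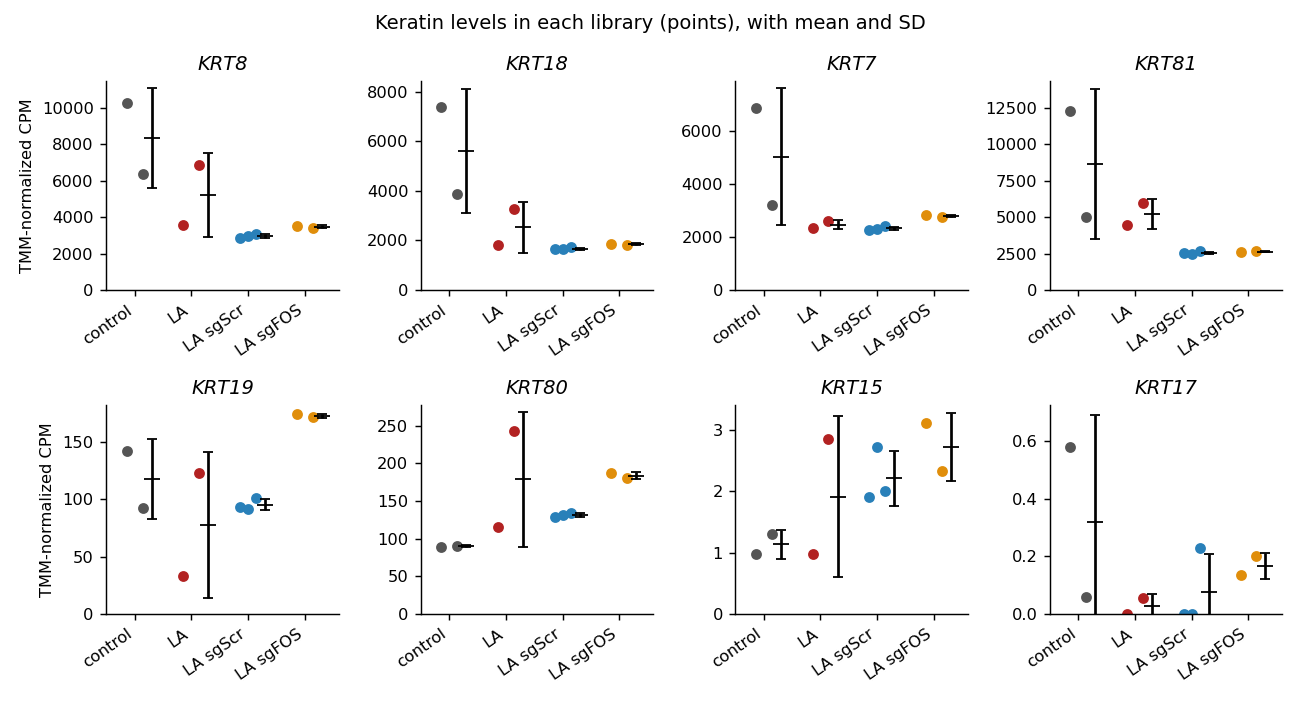
TMM-normalized CPM of each member in each library (points) with the group mean and SD (black bars, cut at 0), on a linear axis of its own for every gene. For the abundant *KRT8* and *KRT18*, the control points and the *LA* points are 1.61-fold to 1.92-fold apart and the sgScr and sg*FOS* points at most 1.08-fold, and in *KRT19* the sg*FOS* points at 174 and 172 are above all others.

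The first comparison asked how the engineered fusion relates to keratin RNA. In *LA* against control, no member passed the threshold of an adjusted p of 0.05 in edgeR's quasi-likelihood test, where 9.57% of all genes tested were called higher and 9.94% lower. The groups did not overlap for *KRT80*, which was higher in *LA*, and for *KRT7* and *KRT18*, which were lower; among all genes tested, 33.8% and 30% did not overlap in those directions. DESeq2 called *KRT18* alone, as lower, among 1778 genes called lower of 19753 fitted. Without control replicate 2, edgeR called 3 members lower, among 2695 genes lower of 15110 tested.

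*KRT18* had a log2 fold change of -1.17 (SE 0.479, edgeR adjusted p = 0.0861), from 5613 ± 2487 CPM in control to 2540 ± 1030 in *LA* (SD, n = 2 each). The *KRT7* difference was -1.05 on the log2 scale (SE 0.469, edgeR adjusted p = 0.115). *KRT80* gave a log2 fold change of 0.96 (SE 0.42, edgeR adjusted p = 0.105), with 89.8 ± 1.08 CPM in control and 179 ± 89.7 in *LA*. The unadjusted p-values of these genes in edgeR's fit across all genes were 0.0227, 0.0353 and 0.0308, and they were the members below 0.05. For *KRT8*, *KRT81* and *KRT19* the log2 fold changes were -0.70, -0.74 and -0.63, and for *KRT15* 0.72, with overlapping groups and edgeR adjusted p-values from 0.291 to 0.534. The median log2 fold change of all genes tested was 0.044. Single libraries decided much of these values. Without control replicate 1 the log2 fold changes were -0.68 for *KRT18*, -0.46 for *KRT7*, -0.37 for *KRT8*, -0.34 for *KRT19* and -0.02 for *KRT81*, and without control replicate 2 they were -1.63, -1.56, -1.07, -0.97 and -1.32. Without *LA* replicate 2 *KRT80* was at 0.37, and without *LA* replicate 1 *KRT8* was at -0.33.

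In this comparison the fold changes of all genes moved with transcript length (Spearman's rho of 0.584 across genes, which are not independent replicates) and GC content (-0.31). The members are short and rich in GC, with transcripts of 1390 to 1929 bp except *KRT80* with 3873 bp, and 56.4% to 62.3% GC. Once both properties were corrected for within each library, the values were -0.22 for *KRT18*, -0.08 for *KRT7*, 0.02 for *KRT8*, 0.07 for *KRT81*, 0.35 for *KRT19*, 0.80 for *KRT80* and 1.32 for *KRT15* on the log2 scale. *KRT8*, *KRT81* and *KRT19* thus turned from below to above 0, no member was called, and 5.39% of genes were called higher and 4.69% lower. Library size alone in place of TMM moved the median of all genes to 0.328 but turned no member, in this and the other comparisons.

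The sgScr libraries were then set against the same control libraries, which is no independent repeat of the first comparison. *KRT18*, *KRT81*, *KRT8* and *KRT7* were lower in sgScr and *KRT80* was higher, all at an adjusted p under 0.05, against 21.7% and 19.8% of all genes tested in those directions. No library of one group overlapped the other for these genes or for *KRT15*, where 33.3% of all genes were lower and 35.9% higher without overlap. *KRT18* and *KRT8* fell by 1.73 (SE 0.262, edgeR adjusted p = 0.00789) and 1.46 (SE 0.211, edgeR adjusted p = 0.00711) on the log2 scale, which is 3.31-fold and 2.75-fold. *KRT81* fell by 1.74 (SE 0.342, edgeR adjusted p = 0.013), from 8642 ± 5111 CPM in control (n = 2) to 2551 ± 88.9 in sgScr (n = 3). *KRT80* rose by 0.56 (SE 0.132, edgeR adjusted p = 0.0212), and *KRT19* had a value of -0.28 (edgeR adjusted p = 0.286). Without control replicate 1 the log2 fold changes were -0.98 for *KRT81*, -0.46 for *KRT7* and -1.20 for *KRT18*, and without control replicate 2 they were -2.25, -1.55 and -2.13.

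Length and GC content moved with the fold changes here too (Spearman's rho of 0.609 and -0.383 across genes). After the correction, *KRT18*, *KRT8* and *KRT81* were still lower, by log2 fold changes of -0.86, -0.75 and -0.88, at edgeR adjusted p-values of 0.00327, 0.00303 and 0.0105. *KRT7* no longer passed, with -0.14 (edgeR adjusted p = 0.392). *KRT19*, at 0.73, and *KRT15*, at 1.53, passed as higher (edgeR adjusted p = 0.00466 and 0.0228), as did *KRT80* at 0.46 (edgeR adjusted p = 0.0272). The share of all genes called after the correction was 18.8% in each direction. Leaving out any sgScr library left no member called, and also left at most 117 genes called higher and 13 lower of all those tested.

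The sgScr and *LA* libraries carry the same fusion, and comparing them shows how far 2 sets of fusion libraries differ. *KRT81* was the only member called, lower in sgScr by a log2 fold change of -1.05 (SE 0.136, 2.08-fold, edgeR adjusted p = 0.00638), where 12.3% of genes tested were called lower and 10.6% higher. *KRT81*, *KRT8* and *KRT18* were below *LA* in every sgScr library, as were 27.2% of all genes tested, while 29.5% were above *LA* in every sgScr library. *KRT8* had a log2 fold change of -0.83 (SE 0.256, edgeR adjusted p = 0.0632) and *KRT18* one of -0.62 (SE 0.233, edgeR adjusted p = 0.101). With the length and GC correction both passed, at -0.79 and -0.65 (edgeR adjusted p = 0.0287 and 0.0409), with 14.4% of genes called lower. *KRT7* was at -0.10 (95% interval -0.33 to 0.12), *KRT19* at 0.27 (-0.92 to 1.46, and a fold change of -0.37 without *LA* replicate 1) and *KRT80* at -0.47 (-1.16 to 0.22). Without *LA* replicate 2, *KRT8* and *KRT18* were at -0.28 and -0.13. The *KRT81* call was lost without any 1 of the sgScr libraries (edgeR adjusted p of 0.0529 to 0.0592) and in a fit over all 9 libraries (0.0648). Without an sgScr library its log2 fold change was -1.04 to -1.08. Of all genes, 171 to 222 were then called higher and 218 to 310 lower, against 1534 and 1793 with every library.

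The last comparison asked what a guide against *FOS* does in fusion cells. In sg*FOS* against sgScr, 5 of the 7 tested members were higher at an adjusted p under 0.05, where 12.2% of all genes tested were called higher and 10.5% lower. For the same 5 genes both sg*FOS* libraries stood above all 3 sgScr libraries, as did 24% of all genes tested. *KRT19* rose by 0.86 on the log2 scale (SE 0.042, 1.82-fold, edgeR adjusted p = 7.41e-19), from 95.5 ± 5.00 CPM (n = 3) to 173 ± 1.69 (n = 2). *KRT80* rose by 0.49 (SE 0.038, 1.4-fold, edgeR adjusted p = 1.07e-12). The changes of the abundant members were smaller, at 0.27 for *KRT7* (SE 0.034), 0.23 for *KRT8* (SE 0.035) and 0.15 for *KRT18* (SE 0.034), with edgeR adjusted p-values of 5.67e-08, 3.95e-06 and 0.00105. Without sg*FOS* replicate 1 the *KRT18* call was lost (edgeR adjusted p = 0.0595).

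*KRT81* did not pass in sg*FOS*, with a log2 fold change of 0.05 whose 95% interval ran from -0.01 to 0.12 (edgeR adjusted p = 0.271, and 0.0397 with a value of 0.08 when sgScr replicate 3 was left out), and *KRT15* was at 0.30 (-0.21 to 0.81). After the length and GC correction the same 5 genes were called higher, with 10.3% of all genes. *KRT19* was then at 0.79, *KRT80* at 0.42, *KRT7* at 0.20, *KRT8* at 0.17 and *KRT18* at 0.10 (edgeR adjusted p = 0.0477 for *KRT18*). With replicate number also in the corrected fit, the *KRT18* call was lost (edgeR adjusted p = 0.157). The uncorrected fold changes of all genes moved with GC content here (Spearman's rho of 0.257 across genes) and hardly with length (-0.0135). At the threshold that the study's methods give (a log2 change of more than 0.5 in either direction and an unadjusted p under 0.05), *KRT19* alone remained, where 3.73% of all genes were called higher and 2.03% lower. A fit over all 9 libraries, which shares the wide spread of control and *LA* with these groups, called no gene, and there *KRT19* had 0.86 at an unadjusted p of 0.0719 in edgeR.

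**Figure D3:**
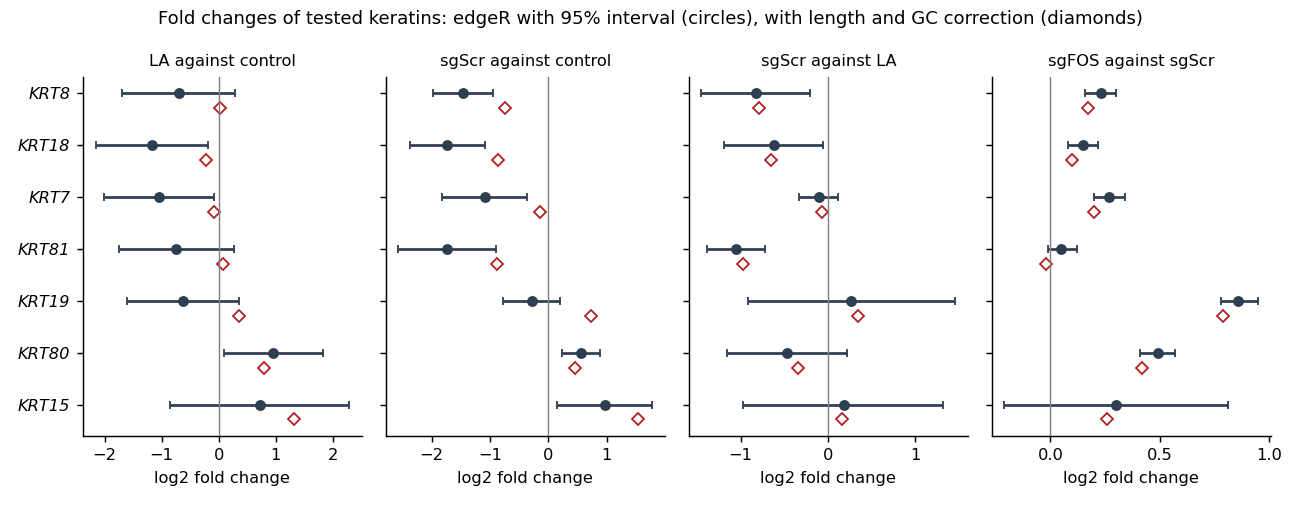
Log2 fold changes of the 7 tested members in the 4 comparisons (circles, with 95% intervals from edgeR) and after the length and GC correction (diamonds, without intervals). The range of the horizontal axis differs between panels. In *LA* against control the diamonds lie near 0 for *KRT8*, *KRT7* and *KRT81*, while in sg*FOS* against sgScr circles and diamonds lie close together.

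Ratios within a library do not depend on its scaling. The counts of *KRT8* were 139% and 166% of those of *KRT18* in control, 197% and 210% in *LA*, 174%, 182% and 180% in sgScr, and 188% and 189% in sg*FOS*. Every fusion library was thus above both control libraries in *KRT8* relative to its partner, and no p-value is given for this ratio. Ratios of raw counts are not corrected for length or GC content, and the *KRT8* and *KRT18* transcripts are 1784 and 1413 bp long. With the length and GC correction, their log2 fold changes in *LA* against control were 0.02 and -0.22, and without it -0.70 and -1.17. In sgScr against control they were -0.75 and -0.86 with it, and -1.46 and -1.73 without it. Summed over the members, the log2 ratio of type II to type I counts was 1.97 and 1.90 in control, 2.51 and 2.21 in *LA*, 2.16 to 2.18 in sgScr, and 2.16 and 2.18 in sg*FOS*.

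The ratio of *KRT19* to *KRT18*, type I genes of similar transcript length, was chosen after the values were seen. It was 1.93% and 2.41% in control, 1.80% and 3.76% in *LA*, 5.66%, 5.59% and 5.88% in sgScr, and 9.28% and 9.45% in sg*FOS*. The sgScr and sg*FOS* libraries did not overlap, and both stood above control and *LA*. *KRT7* exceeded *KRT19* in raw counts in every library, with a log2 ratio of 5.59 and 5.11 in control, 6.16 and 4.39 in *LA*, 4.56 to 4.65 in sgScr, and 4.02 and 4.01 in sg*FOS*.

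*KRT86*, the near copy of *KRT81*, had 0.272% and 0.405% of the counts of *KRT81* in control, 0.682% and 0.470% in *LA*, 0.279%, 0.275% and 0.236% in sgScr, and 0.196% and 0.226% in sg*FOS*. *KRT83* had 0.0490% to 0.130% in the 9 libraries. Both ratios were also chosen after the values were seen. In sgScr against *LA*, *KRT86* fell by 2.15 on the log2 scale (SE 0.122, edgeR adjusted p = 0.000814), and *KRT83* fell by 1.03 (SE 0.236, edgeR adjusted p = 0.0293). The ratio of *KRT86* to *KRT81* was therefore not constant between libraries.

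**Figure D4:**
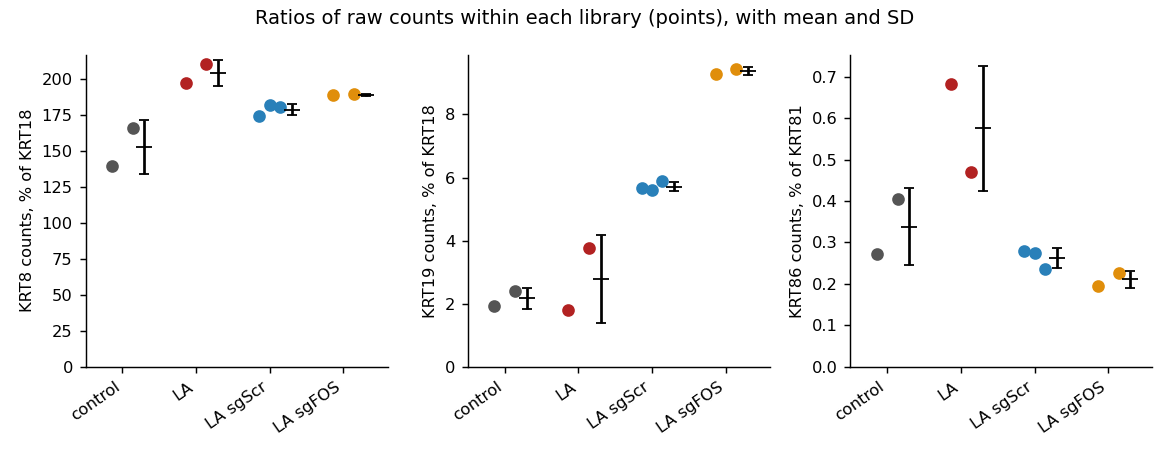
Ratios of raw counts, in percent, within each library (points) with the group mean and SD (black bars), on axes that start at 0. *KRT8* over *KRT18* is lowest in control, *KRT19* over *KRT18* is highest in sg*FOS* at 9.28% and 9.45%, and *KRT86* over *KRT81* is highest in *LA*.

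Of the 47 other keratins, 13 were at 0 in every library, 28 had at most 3 counts in each, and 4 had a mean of at least 50 counts, namely *KRT4*, *KRT10*, *KRT83* and *KRT86*. In sg*FOS* against sgScr, 1 of the 9 that could be tested was higher and 3 were lower. Of all genes tested, 12.2% were called higher and 10.5% lower. *KRT6A*, a type II keratin of activated keratinocytes with near-identical copies of its own, rose by 1.68 (SE 0.359, edgeR adjusted p = 0.000504), on 9, 11 and 18 counts in sgScr and 36 and 26 in sg*FOS*. *KRT6A* passed the filter on low counts through the sg*FOS* libraries, where it was high, so this call adds nothing beyond these counts. The control and *LA* libraries had 0 counts of *KRT6A*. Its mean sgScr level was 3.59-fold that of 3 counts in each control library, with no allowance for counting error in sgScr. *KRT4*, *KRT10* and *KRT83* fell by 0.38, 0.18 and 0.85 (edgeR adjusted p = 0.0037, 0.00986 and 0.0267). *KRT16*, *KRT86* and *KRT222* had log2 fold changes of 0.90, -0.27 and 0.77, and *KRT12* and *KRT20* had -0.65 and 0.03, none of which passed.

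In *LA* against control, *KRT10*, a type I keratin of differentiated epidermis, was the 1 other keratin of 7 tested that changed, as it fell by 1.67 (SE 0.423, edgeR adjusted p = 0.00831). Of all genes tested, 9.57% were called higher and 9.94% lower. *KRT4*, *KRT12*, *KRT83*, *KRT85*, *KRT86* and *KRT222* did not pass, with log2 fold changes from -0.68 to 1.70. *KRT10* was also the 1 of 10 that rose in sgScr against *LA*, by 1.11 (SE 0.139, edgeR adjusted p = 0.00582), where 10.6% of all genes were called higher and 12.3% lower. *KRT4*, *KRT12*, *KRT16*, *KRT20*, *KRT23*, *KRT85* and *KRT222* did not pass there. In sgScr against control, *KRT6A*, *KRT20* and *KRT23* were higher, and *KRT4*, *KRT83*, *KRT86* and *KRT222* were lower, of 10 tested. *KRT10*, *KRT12* and *KRT16* did not pass. Of all genes tested there, 19.8% were called higher and 21.7% lower. *KRT20* had 0 and 8 counts in control and 28 to 32 in sgScr. *KRT23* had 2 in each control library and 6 to 15 in sgScr. *KRT222* had 22 and 19 counts in control and 7 to 13 in sgScr. These and *KRT6A* passed the filter through the group where they were high, so their calls add nothing beyond these counts.

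Among the plakins, large proteins that tie intermediate filaments to junctions and to other filaments, 3 of 7 tested rose in *LA* against control and none fell. *DST* rose by 2.32 (SE 0.426, edgeR adjusted p = 0.00139), *MACF1* by 1.92 (edgeR adjusted p = 0.00353) and *DSP*, the desmosomal plakin, by 1.27 (edgeR adjusted p = 0.029). With the length and GC correction these were 0.79, 0.38 and 0.32 and none passed. The median of the list was 0.73, and 0.23 with the correction. In sgScr against control 4 of 6 rose, and 4 still did with the correction, *DSP* by 1.00 (edgeR adjusted p = 0.00145). With the *FOS* guide, 3 of 7 rose, *PLEC* by 0.23 and *DST* by 0.20 among them (edgeR adjusted p = 1.17e-06 and 2.66e-05). With the correction 2 rose and 2 fell, and *PLEC* no longer passed (0.08, edgeR adjusted p = 0.128). In sgScr against *LA* *DSP* rose by 0.56 (edgeR adjusted p = 0.0271). Of all genes tested, 9.57% were called higher in *LA* against control, 19.8% in sgScr against control and 12.2% with the *FOS* guide. The shares of all genes given above for each comparison also belong beside the counts of the other lists.

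Other intermediate filament genes gave 2 falls among 11 tested in *LA* against control, in *NEFL*, a neurofilament gene (-2.25, edgeR adjusted p = 0.013), and in *VIM*, the filament gene of mesenchymal cells (-1.36, edgeR adjusted p = 0.0327). The *VIM* value was -0.96 with the correction and did not pass. Relative to control, *VIM* in sgScr fell by 1.28 and, with the correction, fell by 0.96 (edgeR adjusted p = 0.00623 and 0.00188), and the lamin gene *LMNB1* rose by 1.08 and *SYNM* by 0.98, of which *SYNM* did not pass with the correction (0.28). In sg*FOS* against sgScr 3 of 9 rose and 1 fell, with *NEFL* at 0.85 and *LMNB1* at -0.23 (edgeR adjusted p = 3.98e-06 and 3.58e-05). With the correction 1 rose and 1 fell, and *INA*, at 0.13 before, was at 0.10 (edgeR adjusted p = 0.114). In sgScr against *LA*, *NEFL* rose by 2.09, *LMNB2* rose by 0.68 and *BFSP1* fell by 0.76.

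Of 8 desmosome genes tested, *PKP2* alone rose in *LA* against control (1.92, edgeR adjusted p = 0.0102), and it fell by 1.01 in sgScr against *LA* (edgeR adjusted p = 0.0393), where *DSC2* rose by 0.98. Between sgScr and control, 2 rose and 2 fell, where *DSG2* rose by 1.52 and *PKP3* fell by 0.76. With the correction 1 rose and 3 fell, and *PKP3* was at -0.06 (edgeR adjusted p = 0.678). With the *FOS* guide, *JUP* rose by 0.10 and *PKP4* fell by 0.13. The *JUP* call was lost with the correction (0.01, edgeR adjusted p = 0.846).

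Genes whose proteins bind or modify keratins numbered 8, all tested. In *LA* against control 3 fell, namely *HSPB1*, a small heat shock protein gene (-2.04), *SFN*, which encodes the 14-3-3 sigma protein (-1.85), and *TRADD* (-1.21), and their values with the correction were -0.24, -0.57 and -0.11, none of which passed. Of the same 8 genes, 3 rose and none fell in sg*FOS* against sgScr, *SFN* by 0.55 (SE 0.042), *FAM83H*, which recruits a casein kinase to keratin filaments, by 0.49 (SE 0.039) and *HSPB1* by 0.26 (SE 0.037), at edgeR adjusted p-values of 3.8e-13, 1.8e-12 and 9.08e-07. In sgScr against *LA* 3 rose, *SFN* and *HSPB1* among them, and *FAM83H* fell by 1.16.

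Among 10 tested genes of epithelial transcription factors, *EHF* and *KLF5* rose in *LA* against control by 10.5-fold and 2.69-fold (edgeR adjusted p = 0.000133 and 0.0209), and both passed with the correction. *EHF* fell by 2.82 in sgScr against *LA* (edgeR adjusted p = 0.00505), where *GRHL3* and *GRHL1* rose by 3.33 and 1.62. With the *FOS* guide, *EHF* rose by 0.54 and *KLF5* fell by 0.15 (edgeR adjusted p = 5.68e-06 and 0.0159), and with the correction 1 rose and 2 fell. In sgScr against control 5 rose and none fell, *GRHL1* by 2.58, *GRHL3* by 2.10 and *SP1* by 1.35 among them. There 19.8% of all genes tested were called higher. *GRHL1* had 7 to 16 counts in control and 69 to 93 in sgScr, and it passed the filter through sgScr. With the correction 5 rose and 1 fell, and *SP1* was at 0.49.

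Over the 9 libraries, the log2 levels of *KRT8* and *KRT18* had a Pearson correlation of 0.981, those of *KRT81* and *KRT8* one of 0.949, and those of *KRT81* and *KRT18* one of 0.94. *KRT19* and *KRT81* were at -0.0198, and *KRT80* and *KRT7* at -0.467. These values describe libraries that share 1 cell line and fall into 4 groups. The levels behind all correlations in this paragraph were not corrected for length or GC content. Among 11870 genes outside the keratins, *KRT19* was most like *WISP2* (Pearson's r of 0.994) and *GATA3* (0.955), *KRT81* was most like *IGFBP4* (0.994) and *MLPH* (0.99), and *KRT18* was most like *MAP2K2* (0.998) and *ZNF358* (0.996). *KRT8* was nearest to *ZBTB45* and *BCL7B* (0.991 each), *KRT7* to *PTDSS2* (0.993) and *LAMTOR1* (0.99), *KRT80* to *EFR3B* and *CHPF2* (0.99 each) and *KRT15* to *TMBIM1* (0.963) and *VAT1* (0.952). *KRT17*, which had at most 9 counts, was nearest to *STUB1* (0.952) and *ZNF263* (0.941).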

How the data were processed

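RNA-seq libraries were made with a stranded mRNA kit and sequenced with 150-bp paired-end reads, per the methods. The submitters' processing notes name STAR 2.7.10b, hg19 and DESeq2 1.26.0. How reads were counted (program, annotation, strand) is not given in the sources used here. The deposited values are unnormalized whole-number counts per gene, and all 9 columns were used. Among the 26364 names, 28 date-like ones were kept in the library sizes.

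The analysis used edgeR 4.0.16 in R 4.3.3 (TMM, filterByExpr, quasi-likelihood test, two-sided, Benjamini-Hochberg over all genes tested) on the libraries of the groups compared, with 14196 to 14521 genes tested. Positions, lengths and GC content came from GENCODE on GRCh37, and 97% or more of genes tested had a length. Sequences were those of the GENCODE transcripts on GRCh37. Alternatives comprised DESeq2 1.42.0, DESeq2 size factors in edgeR, upper quartile normalization, library size alone, a filter at a mean of 50 counts, no filter, a single fit of all 9 libraries, a replicate block, a loess correction (span 0.5) for length and GC content, other thresholds, pseudogene rows added to ratios, and leaving out each replicate. Adding pseudogene rows changed no ratio at the digits kept, so this alternative says nothing about reads of pseudogenes. The 4 comparisons share libraries, so they are not independent. The procedures were tested on simulated counts.

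The members, the 6 gene lists and the tests were chosen with earlier results of these data known. The named genes were all members, the other keratins that passed the filter, up to 3 called genes with the largest changes per list and comparison with a mean of at least 50 counts, the 2 genes most like each member, *FOS* and *ALK*. Replicate numbers did not pair the libraries: same-numbered libraries had correlations of deviations from -0.264 to 0.0463. Plots were made with Python 3.11.15 and matplotlib 3.10.9. Clinical, imaging, qPCR and animal experiments were not analysed here.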

Additional observations from a re-analysis of the deposited data

How the results depend on the processing

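Depth limits *KRT15* and *KRT17*, and the 2 libraries in control, *LA* and sg*FOS* limit every comparison. The members' calls were compared under all alternatives. In *LA* against control, the members called higher numbered 1 in the fit over all 9 libraries (3552 of all 14849 genes). They numbered 1 with the replicate block and length and GC correction (1293 of all 14023) and 1 at the study's threshold (2505 of all 14425). Those called lower numbered 1 with DESeq2 (1778 of all 19753 genes) and 1 without a filter (1562 of all 19753). They numbered 2 over all 9 libraries (3247 of all 14849) and 2 at the study's threshold (2472 of all 14425). In sg*FOS* against sgScr, the members higher numbered 0 over all 9 libraries and 1 at the study's threshold. In sgScr against *LA*, those lower numbered 3 with DESeq2, 2 without a filter, 0 over all 9 libraries, 3 with the length and GC correction, 3 at the study's threshold and 0 to 6 without a replicate (6 without *LA* replicate 1, among 4988 genes lower of 15241, and 3 without *LA* replicate 2, among 3860 of 14875), and those higher 0 to 3 (3 without *LA* replicate 2, among 3748 genes). In sgScr against control, those higher numbered 0 over all 9 libraries, 0 with the replicate block, 3 with the length and GC correction, 2 with both, 2 at the study's threshold, 0 at an adjusted p under 0.01 and 0 to 2 without a replicate, and those lower 2 at an adjusted p under 0.01 and 0 to 5 without a replicate (5 without control replicate 2, among 5656 genes lower of 14968). The cause was not tested. Of all genes in sgScr against *LA*, those lower numbered 1909 with DESeq2 and 1724 without a filter. They numbered 867 over all 9 libraries, 2034 with the correction and 2200 at the study's threshold. Of all genes in sgScr against control, those higher numbered 3358 over all 9 libraries, 1927 with the block, 2642 with the correction and 1761 with both. At the study's threshold 3534 were higher, and at an adjusted p under 0.01 961 were higher and 746 lower. With the replicate block and no correction the members called lower in that comparison numbered 3 instead of 4, the 5 calls in sg*FOS* and the 1 in sgScr against *LA* stayed in number, and *LA* against control gave 791 genes higher and 728 lower of all tested. For same-numbered control and *LA* libraries the correlation of deviations was -0.264, and with 2 libraries per group both replicate numbers give this same value. A crossed pairing, added after seeing the data, called 1977 genes higher and 1901 lower and 0 members.

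Log2 fold changes that changed sign in *LA* against control were *KRT8* (0.017), *KRT19* (0.352) and *KRT81* (0.074) with the length and GC correction, and *KRT19* (0.145) and *KRT81* (0.10) with the replicate block added. Leaving out a replicate gave -0.206 to 1.262 for *KRT15* and -1.84 to 0.012 for *KRT19*, the ends being without one or the other *LA* replicate. In sg*FOS* against sgScr, *KRT81* was at -0.019 with the length and GC correction. In sgScr against *LA*, *KRT15* ran from -0.365 to 1.152, *KRT19* from -0.369 to 1.531 and *KRT80* from -0.89 to 0.165, again between the fits without *LA* replicate 1 and without *LA* replicate 2. In sgScr against control, *KRT19* was at 0.727 with the length and GC correction, at 0.694 with the replicate block added, and between -0.566 (without control replicate 2) and 0.039 (without control replicate 1). The log2 ratio of *KRT81* to *KRT8* was -0.346 or 0.255 in control and -0.205 or 0.325 in *LA* with 1 replicate.

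Over all genes tested, the counts called higher and lower were 1380 and 1434 in *LA* against control (185 to 3552 and 68 to 3247 under the alternatives, and 1599 and 680 with library size alone), 1731 and 1490 in sg*FOS* against sgScr (0 to 1843 and 0 to 1676), 1534 and 1793 in sgScr against *LA* (171 to 4938 and 218 to 4988), and 2872 and 3137 in sgScr against control (3 to 6059 and 0 to 5656).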
